A study of Homo sapiens with 29 samples.

Results

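Complement is a set of plasma and membrane proteins that cells of the liver, and also fibroblasts and other stromal cells, make and secrete. Described here are 9 of its genes, out of 28266 gene symbols in the count table: the classical pathway proteases C1R and C1S, the central component C3, the alternative pathway proteases CFB and CFD, the secreted regulators SERPING1 and CFI, and the membrane regulators CD55 and CD59. They were chosen by name, with the counts of the sequencing lanes of a library summed. The data are RNA sequencing counts of 18 libraries from IMR90 ER:RAS cells, human lung fibroblasts with a retroviral fusion of the estrogen receptor and oncogenic RAS that 4-hydroxytamoxifen (4OHT) switches on, which drives the cells into oncogene-induced senescence. DMSO_siNT held cells given the solvent DMSO and non-targeting siRNA, 4OHT_siNT held cells given 4OHT and non-targeting siRNA, and 4OHT_siSMARCA4 held cells given 4OHT and siRNA against SMARCA4, the ATPase of the SWI/SNF chromatin remodelling complex, with 6 libraries in each group. All groups carried the ER:RAS fusion, were transfected with siRNA and were labelled day 7. Each arm used 2 siRNAs, numbered 2 and 4. An siNT and an siSMARCA4 of the same number are different siRNAs, and comparisons by siRNA number set them side by side by that number only.

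In the classical pathway, C1q bound to a surface activates C1R, which cleaves C1S, and C1S cleaves C4 and C2 to form an enzyme that splits C3. In the alternative pathway, factor D (CFD) cleaves factor B (CFB) bound to C3b, and the resulting enzyme splits more C3, so that the surface is tagged for phagocytes and the membrane attack complex can form. C1 inhibitor (SERPING1) blocks C1R and C1S, factor I (CFI) cuts C3b, CD55 takes apart the C3-splitting enzymes on the cell's own membrane, and CD59 stops the membrane attack complex there.

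Libraries held from 9657309 counts, in DMSO_siNT, to 18039313, in 4OHT_siSMARCA4. The labels do not say that the libraries came from separate cultures, so p-values measure the spread between these libraries, which may be technical. SMARCA4 itself had 217 ± 15.3 CPM (counts scaled by the TMM library size, mean ± SD, n = 6) in DMSO_siNT, 301 ± 20.9 in 4OHT_siNT and 98.9 ± 27.6 in 4OHT_siSMARCA4, where the libraries ranged from 70.3 to 141. Its knockdown log2 fold change was -1.61 (adjusted p = 1.3e-06, edgeR). One library, DMSO_siNT 4-2V, stood apart from its group, with 29.5 CPM of ESR1 against 1033 to 1315 in the other libraries of the group and 436 CPM of HRAS against 2163 to 2850. It also had 4.41 CPM of ALB, the hepatocyte gene for albumin, where no other library passed 0.295. The fibroblast genes fixed as markers, 8 of 8, passed the filter on low counts, with COL1A1 at 1410 CPM or more and VIM at 4099 CPM or more in every library. Summed over the list, DMSO_siNT 4-2V had 11430 CPM and the other DMSO_siNT libraries 26530 to 31270, 4OHT_siNT libraries had 14910 to 19800, and 4OHT_siSMARCA4 libraries 8621 to 12560. Of the defining markers of other complement-making cells, PTPRC, CD14 and CSF1R of macrophages peaked at 0.358, 0.392 and 1.15 CPM. APOA1 of hepatocytes peaked at 2.27 CPM. In bulk RNA, fewer cells of a type and less RNA per cell cannot be told apart.

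The members lie on 6 chromosomes (GRCh38, GENCODE 44 coordinates). C1S (chromosome 12, 6988259 to 7071032, plus strand) and C1R (chromosome 12, 7080214 to 7092540, minus strand) are neighbours, with annotated starts 104281 bp apart. C3 lies on chromosome 19 (6677704 to 6730562, minus), CFD on chromosome 19 (859453 to 867884, plus), CFB on chromosome 6 (31945650 to 31952086, plus), CFI on chromosome 4 (109731008 to 109802150, minus), CD55 on chromosome 1 (207321519 to 207386804, plus), CD59 on chromosome 11 (33703010 to 33736479, minus) and SERPING1 on chromosome 11 (57597387 to 57619171, plus). Some exons overlap other genes, and counts there are uncertain: C1R shares 672 exonic bases with C1RL on the same strand, CFB shares 2273 with C2 and a readthrough gene, and CFD shares 255 with MED16 on the opposite strand.

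C1R and CFB are, of the members that passed the filter on low counts and have a promoter in the RefSeq table (GRCh38.p14), those whose transcript fell furthest with 4OHT. The table held 6 of the 9 members and none of C3, C1S and SERPING1. Their promoters, 250 bases before to 50 after the start, are shown 5′ to 3′ on the gene's strand, with matches to the motifs searched in capitals. They are CFB at chr6:31945845-31946144 (plus), and C1R, for which RefSeq lists a pair of starts, at chr12:7091844-7092143 and chr12:7092396-7092695 (both minus).
CFB: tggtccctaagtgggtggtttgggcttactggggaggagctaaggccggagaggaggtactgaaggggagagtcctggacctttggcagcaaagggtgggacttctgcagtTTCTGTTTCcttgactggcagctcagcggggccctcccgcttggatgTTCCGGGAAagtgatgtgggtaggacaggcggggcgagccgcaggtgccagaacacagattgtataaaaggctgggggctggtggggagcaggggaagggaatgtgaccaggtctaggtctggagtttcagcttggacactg
C1R, first start: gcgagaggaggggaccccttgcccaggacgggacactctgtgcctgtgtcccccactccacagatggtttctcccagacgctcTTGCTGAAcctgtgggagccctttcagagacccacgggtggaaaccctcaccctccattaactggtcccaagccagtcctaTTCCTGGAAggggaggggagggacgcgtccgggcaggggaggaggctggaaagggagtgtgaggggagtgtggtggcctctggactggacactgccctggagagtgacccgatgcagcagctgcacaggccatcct
C1R, second start: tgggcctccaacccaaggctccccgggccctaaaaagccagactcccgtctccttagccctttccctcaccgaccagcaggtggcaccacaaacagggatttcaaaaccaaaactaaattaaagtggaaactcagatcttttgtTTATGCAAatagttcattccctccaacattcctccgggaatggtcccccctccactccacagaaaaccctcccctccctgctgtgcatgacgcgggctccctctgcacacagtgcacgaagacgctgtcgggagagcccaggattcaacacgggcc
The motifs were searched on both strands: NF-kappaB (GGNNTTTCC, in 6.26% of 35116 promoters), AP-1 (TGANTCA, 7.71%), C/EBP (TTGCNNAA, 10.5%), STAT (TTCNNNGAA, 7.66%) and the interferon response element (GAAANNGAA, 8.11%). In CFB, TTCCGGGAA (STAT) began at -92 and TTCTGTTTC (interferon response element, reverse strand) at -139, counted from the start at +1. In C1R, TTGCTGAA (C/EBP) began at -167 and TTCCTGGAA (STAT) at -86 of the first start, and TTATGCAA (C/EBP, reverse strand) at -106 of the second. None of these matches overlapped another. They are matches of letters and say nothing about binding.

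The 4OHT comparison asks how switching on RAS changed the members. Of the 7 members tested, 2 were called higher in 4OHT_siNT than in DMSO_siNT and 4 lower, by edgeR's quasi-likelihood test at an adjusted p under 0.05. Over all 13136 genes tested, 52.8% were called, 23.9% higher and 28.9% lower. C3 rose, CD55 rose slightly, C1R, C1S, CFB and SERPING1 fell, and CD59 was not called. In CPM, the libraries of both groups did not overlap for 2 members that were higher, C3 and CD55, against 17% of all genes, and for 2 that were lower, C1R and CFB, against 16.8%. CFD and CFI did not pass the filter. Without DMSO_siNT 4-2V, the 6 calls remained, with log2 fold changes of 6.14 for C3, 0.44 for CD55, -2.60 for C1R, -0.66 for C1S, -1.57 for CFB and -0.95 for SERPING1. Markers of cell types moved in the same comparison: 5 of 8 fibroblast genes were called lower (DCN -5.17, LUM -1.99, COL1A2 -1.52, THY1 -0.88 and PDGFRB -0.57) and 2 of 3 epithelial genes (KRT19 -5.04 and KRT8 -0.84), and the macrophage gene FCER1G (2.25) and the endothelial gene VWF (1.23) were called higher. Their part in the members' results was not tested.

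The knockdown comparison asks what loss of SMARCA4 changed in senescent cells. By edgeR, 0 members were called higher in 4OHT_siSMARCA4 than in 4OHT_siNT and 1, SERPING1, lower, where 10.6% of all genes were called, 4.99% higher and 5.65% lower. At an unadjusted p under 0.05, 3 members were higher (C3, CD55 and CD59) and 2 lower (C1R and SERPING1), against 24.7% of all genes in either direction. DESeq2 also called 0 higher and 1 lower, where it called 6.86% of all genes higher and 7.88% lower. The libraries did not overlap for 1 member, SERPING1, against 6.27% of all genes lower and 5.12% higher. Against DMSO_siNT, which shares its libraries with the first comparison, 4OHT_siSMARCA4 had 3 members called higher and 4 lower, with 50.5% of all genes called, 23.3% higher and 27.3% lower. There the libraries did not overlap for 2 higher members (14.3% of all genes) and 4 lower ones (15.2%).

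**Figure D1:**
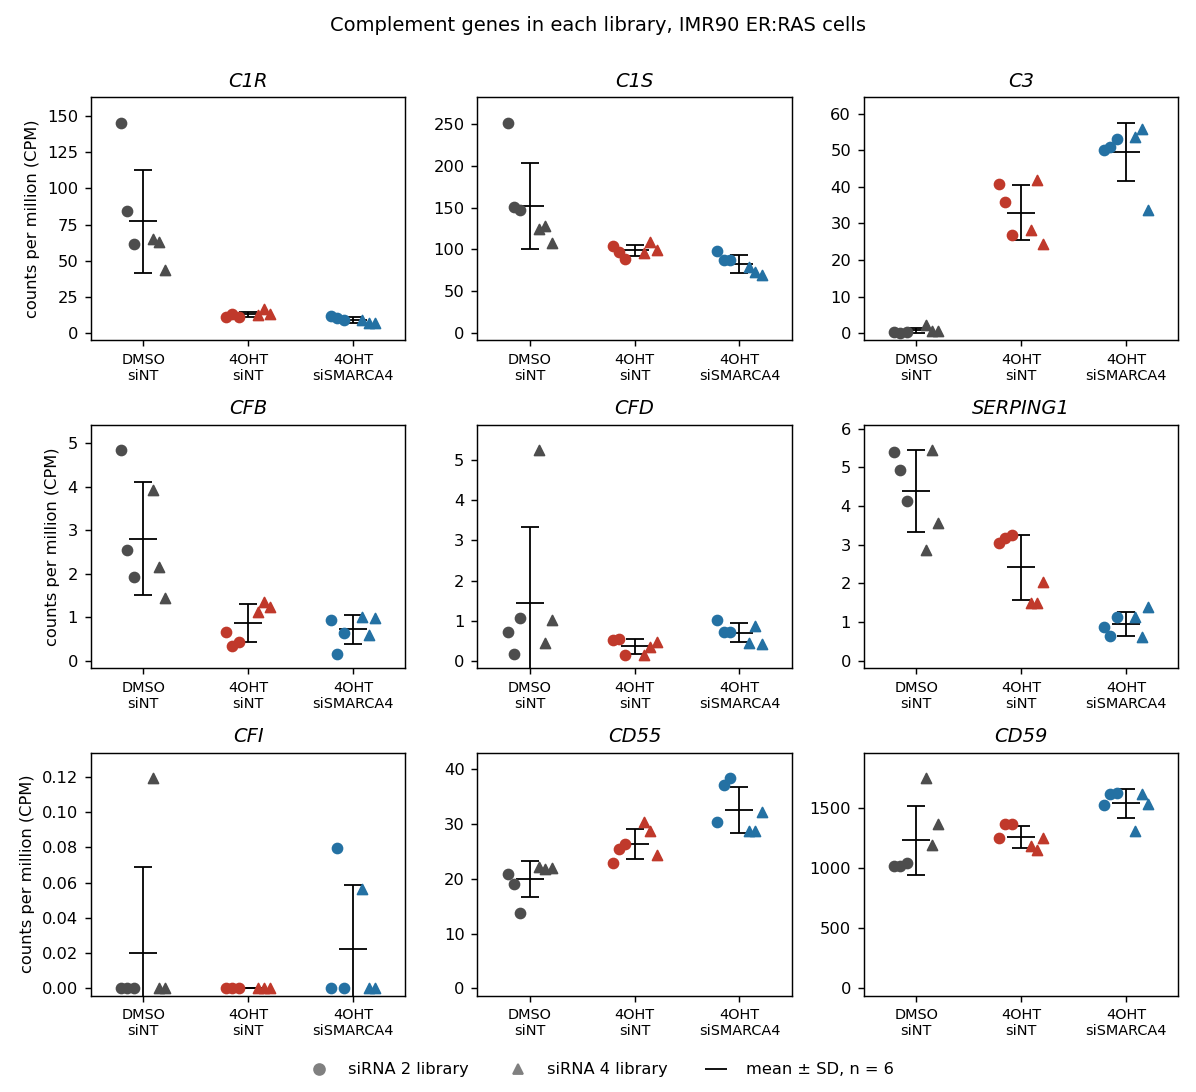
CPM of each of the 9 members in each library of the 3 groups, on a linear axis, with circles for siRNA 2, triangles for siRNA 4 and bars for the mean ± SD (n = 6, lower ends that pass below 0 cut off by the axis). C3 sits at 2.27 CPM or lower in DMSO_siNT and at 24.4 or higher in both 4OHT groups, C1R sits at 43.6 or higher in DMSO_siNT and at 16.4 or lower in both 4OHT groups, and SERPING1 is at 1.40 or lower in 4OHT_siSMARCA4, below every 4OHT_siNT library.

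C1R, the protease that activates C1S, had 43.6, 64.1 and 145 CPM as its lowest, median and highest library in DMSO_siNT, 11.1, 12.98 and 16.4 in 4OHT_siNT, and 6.996, 9.25 and 12.1 in 4OHT_siSMARCA4. Every DMSO_siNT library was above every 4OHT library, and the ranges of both 4OHT groups overlapped. The fall with 4OHT was 5.94-fold (log2 fold change -2.57 ± 0.23 SE, adjusted p = 2.29e-08, edgeR). The knockdown difference was -0.49 ± 0.23 on the log2 scale and was not called (adjusted p = 0.192, edgeR). By siRNA it was -0.14 ± 0.26 against siNT 2 (adjusted p = 0.828) and -0.88 ± 0.26 against siNT 4 (adjusted p = 0.0773, edgeR), neither called. Against DMSO_siNT, the knockdown cells were 8.35-fold lower (-3.06 ± 0.24, adjusted p = 2.39e-09).

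C1S, which cleaves C4 and C2, fell less than C1R with 4OHT. Its lowest, median and highest CPM were 108, 138 and 251 in DMSO_siNT, 88.5, 98.2 and 108 in 4OHT_siNT, and 69.7, 83.0 and 98.7 in 4OHT_siSMARCA4. DMSO_siNT and 4OHT_siNT just overlapped, and the knockdown range lay below all DMSO_siNT libraries. The fall with 4OHT was 1.53-fold (log2 fold change -0.62 ± 0.16 SE, adjusted p = 0.00288, edgeR). With siRNA 2 only it was -0.91 (adjusted p = 0.000601), and with siRNA 4 only -0.22, not called (adjusted p = 0.266). The siRNA 4 fit includes DMSO_siNT 4-2V, and its weight there was not tested. The knockdown difference, -0.26 ± 0.16, was not called (adjusted p = 0.33).

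The ratio of C1S to C1R counts was also compared, a comparison chosen after the values were seen. There were 1.73 to 2.47 C1S counts per C1R count in DMSO_siNT (median 1.97), 6.59 to 9.16 in 4OHT_siNT (median 7.502) and 8.14 to 10.5 in 4OHT_siSMARCA4 (median 8.97). No 4OHT library reached the DMSO_siNT range. The mean log2 ratio was 1.91 higher with 4OHT (exact permutation test, two-sided, n = 6 and 6, p = 0.00216, the smallest this design allows, and 0.00324 adjusted over 3 comparisons), and 1.89 higher without DMSO_siNT 4-2V (exact p = 0.00433). The knockdown group was 0.24 above 4OHT_siNT (exact permutation p = 0.0216, adjusted p = 0.0216), with overlapping ranges. With siRNA 2 the ratio was 8.14 to 9.28 in the knockdown and 7.44 to 9.16 in 4OHT_siNT. With siRNA 4 it was 8.66 to 10.5 and 6.59 to 7.56, so only those ranges did not overlap. The siRNAs were not tested apart for the ratio. Over the 18 libraries, deviations of log2 CPM from the group means ran together for C1R and C1S (r = 0.935), a description of libraries that share depth and handling. The next closest member pair, C3 and CD59, had r = 0.698, with DMSO_siNT 4-2V, the highest of its group for both, kept in.

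**Figure D2:**
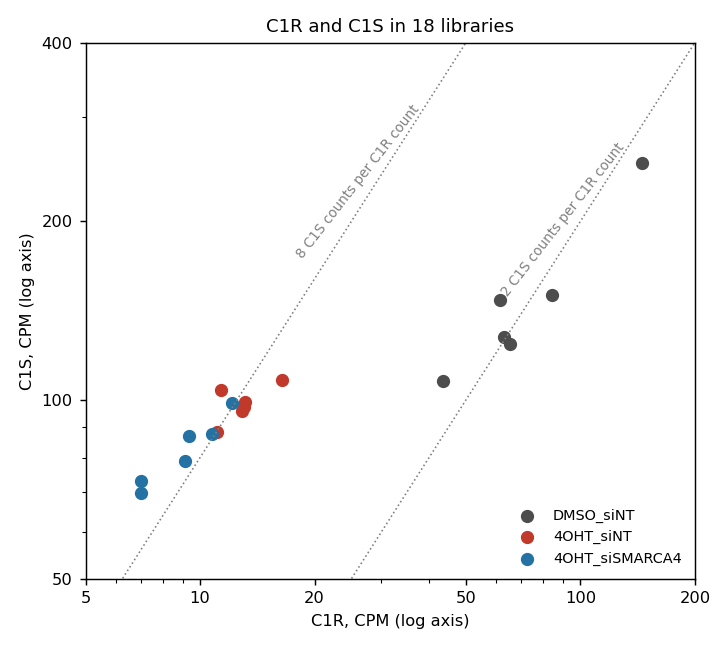
C1S against C1R in CPM per library, both axes logarithmic, coloured by group, with lines at 2 and 8 C1S counts per C1R count. DMSO_siNT libraries lie along the lower line (1.73 to 2.47) and both 4OHT groups around the upper one (6.59 to 10.5).

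C3, the component on which all pathways converge, was barely detected before 4OHT. DMSO_siNT libraries had 2 to 19 counts, or 0.164, 0.469 and 2.27 CPM as lowest, median and highest. In 4OHT_siNT they had 24.4, 31.9 and 41.9 CPM, and in 4OHT_siSMARCA4 33.7, 51.95 and 55.8. Every 4OHT library was above every DMSO_siNT library, and both 4OHT groups overlapped. C3 was 47.7-fold higher with 4OHT (log2 fold change 5.58 ± 0.33 SE, adjusted p = 7.26e-11, edgeR), and 6.14 on the log2 scale without DMSO_siNT 4-2V, which held the 19 counts. By control siRNA, the rise was 97.7-fold with siNT 2 and 29.8-fold with siNT 4, a difference of 1.71 ± 0.66 on the log2 scale (adjusted p = 0.146, edgeR). The siNT 4 side includes DMSO_siNT 4-2V. The knockdown cells had 1.501-fold more C3 than 4OHT_siNT (0.59 ± 0.24), which was not called (adjusted p = 0.13). Without DMSO_siNT 4-2V, which is in neither group but enters the shared estimate of spread, the same difference was 0.57 and was called (adjusted p = 0.00683), as it was with only the compared groups in the fit (0.58, adjusted p = 0.00793). These fits called 11.7% and 13.3% of all genes higher, against 4.99%.

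Factor B, which forms the alternative pathway enzyme with C3b, was low throughout. CFB had 1.46, 2.35 and 4.84 CPM as lowest, median and highest in DMSO_siNT, 0.346, 0.883 and 1.36 in 4OHT_siNT, and 0.159, 0.795 and 1.01 in 4OHT_siSMARCA4. DMSO_siNT libraries held 20 to 68 counts and all lay above the 5 to 20 counts of 4OHT_siNT in CPM. CFB fell 3.22-fold with 4OHT (log2 fold change -1.69 ± 0.38 SE, adjusted p = 0.00108, edgeR), so it moved against C3, its binding partner. With siRNA 2 only the fall was -2.67 on the log2 scale (adjusted p = 0.000711), and with siRNA 4 only -0.95, not called (adjusted p = 0.0913). The siRNA 4 fit includes DMSO_siNT 4-2V. The knockdown difference, -0.23 ± 0.42 (adjusted p = 0.794), was within its error.

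Factor D, which cleaves factor B, was too sparse for the filter. CFD had 2 to 44 counts per DMSO_siNT library, 2 to 8 per 4OHT_siNT library and 5 to 13 per 4OHT_siSMARCA4 library. The 44 counts were DMSO_siNT 4-2V, at 5.25 CPM, where the others of its group had 0.164 to 1.07. With all genes that had at least 1 count in the fit, CFD was lower with 4OHT (log2 fold change -1.83 ± 0.59 SE, adjusted p = 0.0175, edgeR), and without that library it was not called (-0.90 ± 0.44, adjusted p = 0.114). Factor I, the protease that cuts C3b, was hardly detected: CFI had 3 counts over all libraries, 1 in each of 3 libraries, so no fold is given.

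C1 inhibitor was the member that separated the knockdown from 4OHT_siNT. SERPING1 had 2.86, 4.54 and 5.44 CPM as lowest, median and highest in DMSO_siNT, 1.48, 2.54 and 3.25 in 4OHT_siNT, and 0.605, 0.993 and 1.40 in 4OHT_siSMARCA4. The knockdown libraries, with 7 to 20 counts each, lay below every 4OHT_siNT library, which had 20 to 46, while 4OHT_siNT and DMSO_siNT overlapped. It fell 1.82-fold with 4OHT (log2 fold change -0.87 ± 0.25 SE, adjusted p = 0.00604, edgeR) and a further 2.49-fold with the knockdown (-1.32 ± 0.27, adjusted p = 0.004). Against DMSO_siNT it was 4.54-fold lower (-2.18 ± 0.27, adjusted p = 1.15e-06). The fibroblast markers moved with it: 6 of 8 were called lower in the knockdown and their summed levels did not overlap, and their part in the result was not tested.

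SERPING1 was then compared for each siRNA. In 4OHT_siNT it stood at 3.06 to 3.25 CPM with siNT 2 and at 1.48 to 2.03 with siNT 4. In a fit with each siRNA as its own level (13659 genes), siSMARCA4 2 was lower than siNT 2 (log2 fold change -1.84 ± 0.32 SE, adjusted p = 0.00228, edgeR), where 7.67% of genes were called. siSMARCA4 4 was -0.68 ± 0.33 against siNT 4 and was not called (adjusted p = 0.287), where 2.71% of genes were. The difference between both effects was -1.16 ± 0.46, with an unadjusted p of 0.0229 and an adjusted p of 0.574. The controls siNT 2 and siNT 4 differed by 0.92 ± 0.30 (adjusted p = 0.259), and siSMARCA4 2 and 4 by -0.24 ± 0.35 (adjusted p = 0.95).

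In the comparisons of siRNA 2 with siRNA 4, edgeR called 0 members. At an unadjusted p under 0.05 there were 5 in DMSO_siNT, 2 in 4OHT_siNT, 0 in 4OHT_siSMARCA4 and 1, SERPING1, in the difference of knockdown effects, where 0.0512%, 0.0732%, 0.00732% and 0.0146% of all genes were called and 28.3%, 10.6%, 6.43% and 7.28% had such an unadjusted p. In DMSO_siNT, siNT 2 minus siNT 4 was -1.59 ± 0.59 for C3 (adjusted p = 0.104), 0.60 ± 0.17 for C1S (0.0625), 0.76 ± 0.24 for C1R (0.0736) and -0.49 ± 0.14 for CD59 (0.0629), and DESeq2 called these 4. The siNT 4 libraries of this group include DMSO_siNT 4-2V. For DESeq2, the share of all genes called there was not computed, and the shares above are from edgeR. Between V and VM sets, names whose meaning the labels do not give, edgeR also called 0 members, with 2 at an unadjusted p under 0.05 in DMSO_siNT (C1R and CFB) and 1 in 4OHT_siSMARCA4 (CFB), where 0.324% and 0.101% of genes were called and 16% and 8.15% had such an unadjusted p. All 4OHT_siNT libraries were VM. Within VM sets, the 4OHT log2 fold changes were 5.86 for C3, -2.10 for C1R, -1.09 for CFB, -0.85 for SERPING1, -0.37 for C1S and 0.46 for CD55, each called, and the knockdown change of SERPING1 was -1.96 (adjusted p = 0.00569, edgeR).

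CD55, which takes apart C3-splitting enzymes, had 13.7, 21.3 and 22.2 CPM as lowest, median and highest in DMSO_siNT, 22.8, 25.9 and 30.2 in 4OHT_siNT, and 28.6, 31.2 and 38.3 in 4OHT_siSMARCA4. Each 4OHT library was above all DMSO_siNT libraries in CPM, by a narrow gap, and both 4OHT groups overlapped. It rose 1.32-fold with 4OHT (log2 fold change 0.40 ± 0.12 SE, adjusted p = 0.0099, edgeR). The rise was 0.49 with siRNA 2 only (adjusted p = 0.0138) and 0.37 with siRNA 4 only, not called (adjusted p = 0.0883). DMSO_siNT 4-2V is part of the siRNA 4 fit. The knockdown difference, 0.30 ± 0.12, was not called (adjusted p = 0.122), and the knockdown cells were 1.63-fold above DMSO_siNT (0.71 ± 0.12, adjusted p = 7.73e-05).

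CD59, the inhibitor of the membrane attack complex, was by far the most abundant member. It had 1012, 1116 and 1746 CPM as lowest, median and highest in DMSO_siNT, 1144, 1249 and 1363 in 4OHT_siNT, and 1309, 1572 and 1619 in 4OHT_siSMARCA4. All groups overlapped, and the 1746 was DMSO_siNT 4-2V. It differed by 0.03 ± 0.13 with 4OHT (log2 fold change ± SE, adjusted p = 0.839, edgeR) and by 0.29 ± 0.13 with the knockdown (adjusted p = 0.167). The 4OHT difference was 0.38 and called with siRNA 2 only (adjusted p = 0.000904). It was -0.24 with siRNA 4 only, a fit that includes DMSO_siNT 4-2V (adjusted p = 0.381), and 0.17 without that library (adjusted p = 0.132). Without DMSO_siNT 4-2V the knockdown difference was 0.28 and was called (adjusted p = 0.0252), in a fit that called 11.7% of all genes higher. The knockdown cells were 1.25-fold above DMSO_siNT (0.32 ± 0.13, adjusted p = 0.0422), a call that held in 9 of 18 fits that left out 1 library, with adjusted p from 0.000336 to 0.1, and that was 0.44 without DMSO_siNT 4-2V.

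**Figure D3:**
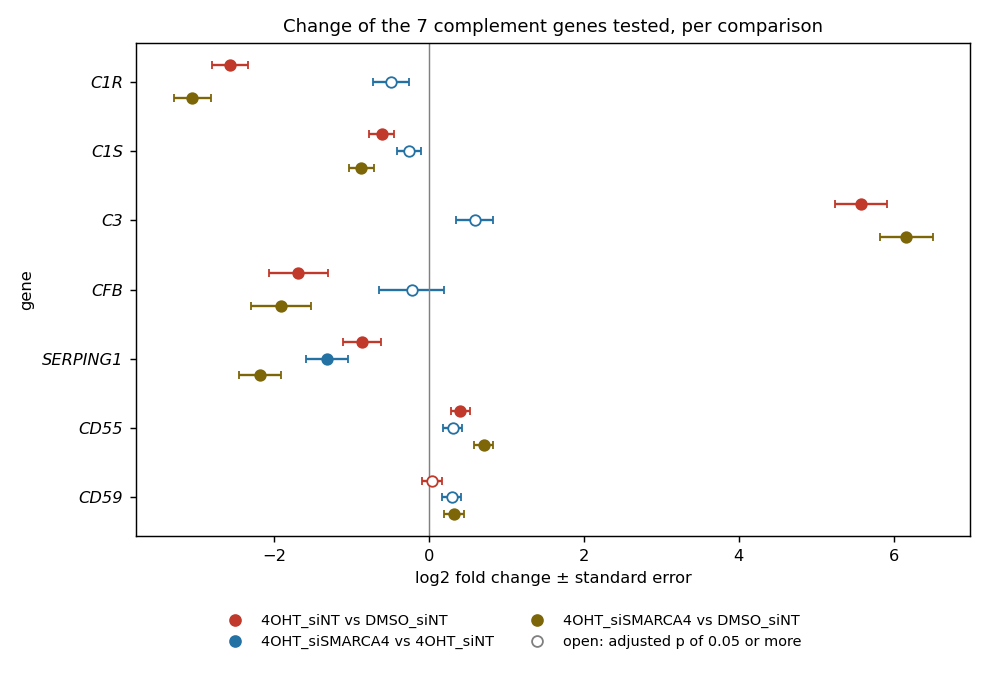
Log2 fold change ± SE of the 7 tested members in the 3 comparisons, filled where the adjusted p was under 0.05. C3 is far to the right and C1R far to the left in both comparisons with DMSO_siNT, and SERPING1 alone is filled in the knockdown comparison.

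Per transcript length (TPM, counts divided by exon length and scaled to the same sum in each library), CD59 led in every group, with 481 ± 33.6 (mean ± SD, n = 6) in DMSO_siNT, 503 ± 42.4 in 4OHT_siNT and 600 ± 43.1 in 4OHT_siSMARCA4. C1S came next, with 79.7 ± 34.7, 50.3 ± 3.66 and 41.0 ± 4.68 TPM. In DMSO_siNT, C1R followed at 58.1 ± 32.1, within the spread of C1S, then CD55 at 8.22 ± 1.59. CFD (2.78 ± 2.81), SERPING1 (2.67 ± 0.942) and CFB (2.23 ± 1.07) did not differ beyond their spread, and C3 stood at 0.242 ± 0.172, above CFI alone. Without DMSO_siNT 4-2V, CFD was at 1.69 ± 0.927 and C3 at 0.178 ± 0.0811 (n = 5). In 4OHT_siNT, C3 took the third place at 12.04 ± 2.84 TPM, a spread that held the means of CD55 (10.8 ± 1.01) and C1R (9.42 ± 1.18). In 4OHT_siSMARCA4 C3 was at 17.7 ± 2.84, CD55 at 13.1 ± 1.82 and C1R at 6.55 ± 1.33. For CD55, the highest DMSO_siNT library (9.777 TPM) and the lowest 4OHT_siNT library (9.763) just overlapped. By the length of the longest transcript they did not (18.35 and 18.54).

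**Figure D4:**
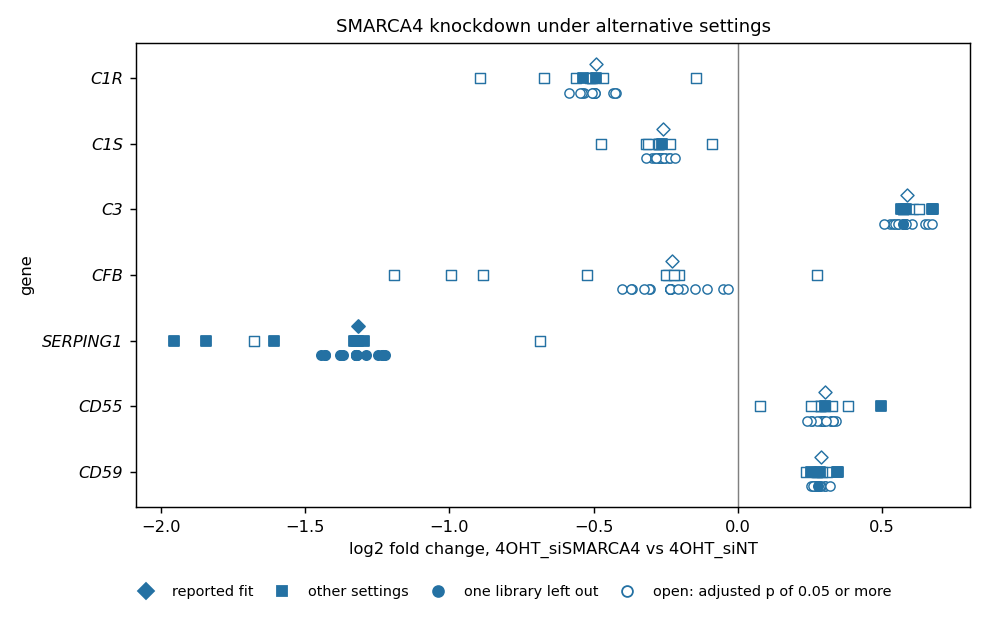
Knockdown log2 fold change of each tested member as reported, under other settings and with 1 library left out, filled where called. SERPING1 stays negative throughout and is called in 18 of 18 fits that leave out a library, and C3, CD55 and CD59 are positive and called under some settings.

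SERPING1 was called lower in all 18 fits that left out a library (log2 fold change -1.45 to -1.22, adjusted p 0.00108 to 0.0122, edgeR). It was not called with siRNA 4 alone (-0.69, adjusted p = 0.598), a fit that called 0.0151% of all genes in each direction and not SMARCA4 itself (-1.67, adjusted p = 0.0925). That fit holds DMSO_siNT 4-2V and sets siSMARCA4 4 against siNT 4, the control with less SERPING1.

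Of 49 further complement genes, 11 passed the filter. With 4OHT, 4 were called higher and 4 lower, where 52.8% of all genes were called, and their median log2 fold change was 0.02, beside -0.05 over all genes and -0.62 over the 7 members. In the classical and lectin pathways, C1RL, a C1R-like protease (-1.01 ± 0.21), and MASP1, a lectin pathway protease (-2.56 ± 0.34), fell, and the collectins COLEC10 (1.36 ± 0.26) and COLEC12 (1.89 ± 0.26) rose. C5, which starts the membrane attack complex, fell (-1.91 ± 0.42), as did CLU, which binds that complex in solution (-1.49 ± 0.17). C1QBP rose (0.40 ± 0.13). ITGAX, a subunit of a C3 fragment receptor, had 0 to 0.149 CPM in DMSO_siNT (0 to 2 counts per library) and 1.60 to 3.20 CPM in 4OHT_siNT (22 to 47 counts). The substrates and partners of C1R and C1S were hardly seen: C1QB and C1QC were listed at 0 in every library, C1QA had at most 1 count and C2 at most 7. C4A and C4B were also listed at 0, and as near-identical copies their reads may not have been assigned.

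With the knockdown, 1 of these 11 genes was called higher and 2 lower, where 10.6% of all genes were called. MASP1 fell (13.1 ± 6.97 CPM in DMSO_siNT, 2.21 ± 0.479 in 4OHT_siNT and 0.621 ± 0.439 in the knockdown, mean ± SD, n = 6). Its log2 fold change was -1.82 ± 0.41 (SE, adjusted p = 0.00721, edgeR). It was -2.49 against siNT 2 (adjusted p = 0.00386) and -1.37 against siNT 4, not called (adjusted p = 0.0868, edgeR). COLEC10 fell from 80.8 ± 25.99 to 28.0 ± 7.38 CPM, beside 31.4 ± 12.9 in DMSO_siNT, a change of -1.81 against siNT 2 (adjusted p = 0.00311) and of -1.13 against siNT 4, not called (adjusted p = 0.0715, edgeR). CLU was higher, at 456 ± 63.4 CPM against 280 ± 43.3 (0.71 ± 0.17, adjusted p = 0.0116). CD46, a membrane cofactor for factor I, was not called (0.21 ± 0.11, adjusted p = 0.251). The median over the 11 was 0.12, beside 0.01 over all genes and -0.23 over the members. Against DMSO_siNT, 5 were called higher and 4 lower, where 50.5% of all genes were called.

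**Figure D5:**
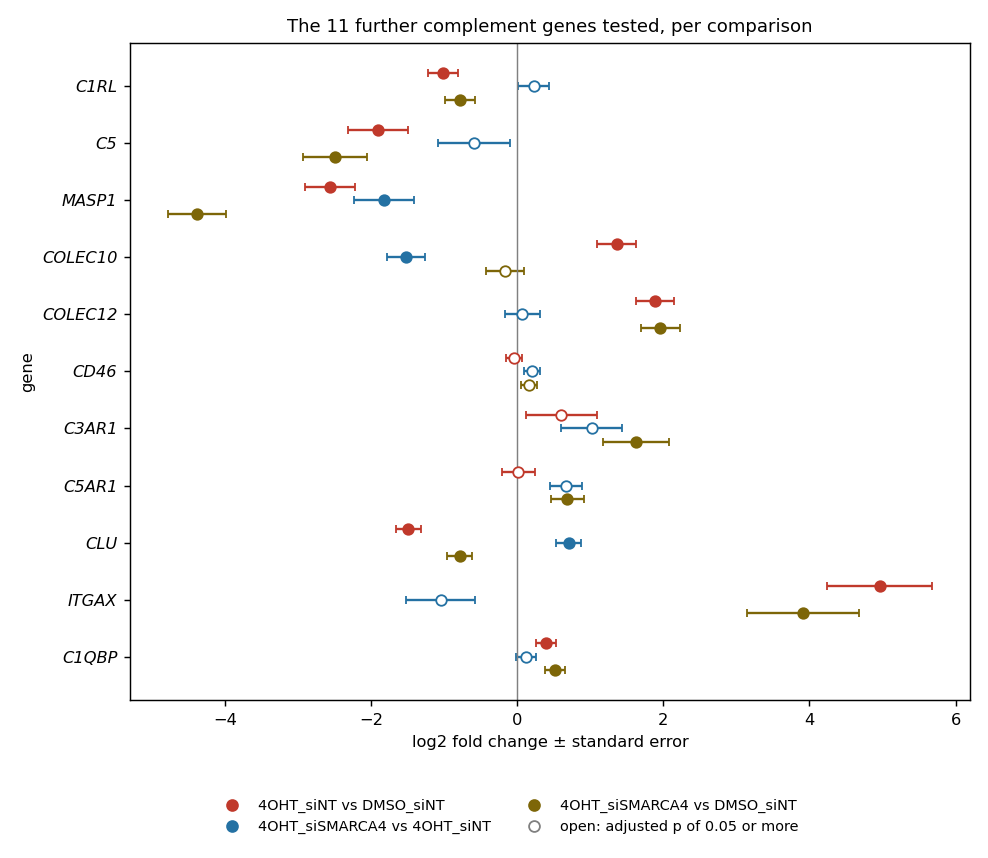
Log2 fold change ± SE of the 11 further complement genes that passed the filter, in the 3 comparisons, filled where the adjusted p was under 0.05. MASP1 lies left in all 3, COLEC10 rises with 4OHT and falls with the knockdown, and CLU does the reverse.

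Of 17 acute-phase genes, 2 passed the filter, 1 of them higher with 4OHT and 1 lower with the knockdown. Of the marker lists of other cells, 1 of 8 macrophage genes, 0 of 5 hepatocyte genes, 3 of 5 epithelial genes and 2 of 5 endothelial genes passed. Summed over its list, DMSO_siNT libraries had 0.569 to 1.19 CPM of the macrophage genes, 4OHT_siNT libraries 1.45 to 2.58, and 4OHT_siSMARCA4 libraries 1.05 to 2.97. In the same order, the epithelial sum was 103 to 144, 62.4 to 78.8 and 34.03 to 56.9 CPM, the endothelial sum 4.44 to 11.7, 9.19 to 15.6 and 8.55 to 12.3, and the hepatocyte sum 0.224 to 1.07 (10.3 in DMSO_siNT 4-2V), 0.136 to 0.591 and 0.247 to 0.691.

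The genes most like each member were found from deviations of log2 CPM from the group means over 18 libraries, low genes (mean log2 CPM of 1 or less) left out, as a description of libraries that share depth and handling. C1R ran with FBLN1 (r = 0.932), LTBP4 (0.876) and TRPA1 (0.849). C1S ran with FENDRR (0.889), FBLN1 (0.887) and LTBP4 (0.882), so that FBLN1 and LTBP4, both of the extracellular matrix, were shared. C3 ran with MED30 (0.909), TRMT12 (0.878) and MIIP (0.87), and CFB with ASS1 (0.865), SRR (0.855) and CLMP (0.843). CD55 ran with FBXO32 (0.821), RIN2 (0.789) and LGALS3 (0.754). CD59 ran with COX7A2L (0.972), ELOC (0.969) and NDUFC1 (0.967), and SERPING1 with CGGBP1 (0.935), MSH3 (0.919) and STT3B (0.902). Over all libraries without centring, where group differences enter, C3 was closest to TCIM (0.993), CXCL8 (0.99) and GDF15 (0.989). MED30 there had r = -0.471 with C3. DMSO_siNT 4-2V, the highest library of its group for C3 (2.27 CPM) and CD59 (1746 CPM), was kept in both measures. Its weight in these values was not tested.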

How the data were processed

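Strand-specific libraries of polyadenylated RNA were sequenced as single-end reads. The submitters' processing notes name hg38, STAR 2.7.8a and DESeq2 1.36.0. The annotation, the counting program and its strand setting are not given in the sources used here. The authors deposited unnormalized gene counts, in 36 columns of 2 lanes for each of 18 libraries. Lanes were summed. Of 29 samples in the labels, 17 matched a library, and 1 further knockdown library, named with siRNA 2 and set 1VM, matched no title and joined its group as a replicate. The other samples were not analysed here.

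Genes were filtered with filterByExpr (minimum count 10), which kept 13136, scaled with TMM and tested by edgeR 4.0.16 (quasi-likelihood, R 4.3.3), all 3 groups in 1 fit, with Benjamini-Hochberg adjustment over all genes tested and calls at an adjusted p under 0.05. SE came from the F statistic. The fits were tested on simulated data. TPM used GENCODE 44 exon lengths, which 25763 of 28266 symbols had. Alternatives covered scaling, DESeq2 1.42.0, filters, the set label as a block, subsets and leaving out each library. VM sets with the unmatched library, the siRNA fit without it, and fits for CFD, CFI and the C1S to C1R ratio without DMSO_siNT 4-2V, with TPM and marker sums, were chosen after seeing the data. The members, lists and the rule for named genes (all members, SMARCA4, called complement genes and the 3 genes most like each member) were chosen with earlier results of these data known. A gene of the complement list is not reported here. Lanes of a library gave a chi-square per degree of freedom of 1.19 to 1.27, and libraries of the same group at least 2.33, so none was taken as a duplicate.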

Additional observations from a re-analysis of the deposited data

Results flagged for a closer look

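Of 21 sets of 6 libraries (7 members in 3 groups), 4 had a lowest library whose gap to the next, as a share of the range of log2 CPM, passed Dixon's critical value for 6 libraries, where chance gives about 1 in 20. C3 was lowest in 4OHT_siSMARCA4 4-3V, at 33.7 CPM against 49.98 to 55.8 in the other libraries of the group (gap share 0.782). CFB was lowest in 4OHT_siSMARCA4 2-3VM, at 0.159 CPM from 2 counts (0.675). CD55 was lowest in DMSO_siNT 2-2VM, at 13.7 CPM against 19 to 22.2 (0.678). CD59 was lowest in 4OHT_siSMARCA4 4-2V, at 1309 CPM against 1522 to 1619 (0.708). These are 4 different libraries, and their cause was not tested.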

How the results depend on the processing

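Of 579 recomputed log2 fold changes of the members, 534 kept their direction and side of the threshold, 16 passed it newly, 24 lost it and 5 changed sign. The cause of these changes was not tested. With at least 10 counts in every library, fewer genes were tested, and C3, CFB and SERPING1 were not among them. Members called were then 1 higher and 2 lower with 4OHT (22.9% and 29.3% of all genes). With the knockdown 0 were lower (5.2%), and 1 was higher and 2 lower in the knockdown against DMSO_siNT (21.7% and 27.6%). A change over 2-fold left 1 higher and 2 lower with 4OHT (8.05% and 13.4% of all genes) and 1 higher against DMSO_siNT (7.71%). With siRNA 4 only, there was 1 higher with 4OHT (16.2% of all genes), 0 lower with the knockdown (0.0151%) and 1 higher against DMSO_siNT (14%). With the knockdown, 2 were higher in VM sets only, 3 with siRNA 2 only, 3 higher and 3 lower with only the groups compared, and 2 higher and 2 lower in VM sets with the unmatched library. The shares of all genes called higher rose too, from 4.99% to 8.76%, 11.8%, 13.3% and 13.6% in these fits. Those called lower rose from 5.65% to 12.2%, 13.9%, 13.6% and 16.7%. Leaving out each library gave 2 higher and 4 to 5 lower with 4OHT, 0 to 2 higher and 1 lower with the knockdown (2 without DMSO_siNT 4-2V), and 2 to 3 higher and 4 lower against DMSO_siNT. Over all genes, these fits called 2962 to 3710 higher and 3533 to 4024 lower with 4OHT. They called 385 to 1555 higher and 536 to 1714 lower with the knockdown, and 2881 to 3804 and 3436 to 4046 against DMSO_siNT.

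Of 15 pairs of same-set libraries from different groups, 5 had correlated deviations over 0.1 (r -0.297 to 0.32). Of 81 pairs from different sets, 25 did (r -0.298 to 0.29), so the sets were not taken as pairs. Sets V and VM still differed within DMSO_siNT, where 0.324% of genes were called. With set labels entered as a replicate block, members called were 1 higher and 1 lower with 4OHT and 0 lower with the knockdown, where SERPING1 was -1.68 (adjusted p = 0.0817, edgeR). That fit called 15.2% of all genes higher and 17.5% lower with 4OHT, and 0.638% and 1.13% with the knockdown. Further complement genes called with the knockdown were then 0 higher and 1 lower. The block turned the DMSO_siNT siRNA difference of CFB to -0.33 and the difference of knockdown effects of C3 to 0.52.

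Further complement genes called are given with the share of all genes called the same way in parentheses. With 4OHT, 7 were higher with all genes that had at least 1 count (15.3%). Those lower were 2 with at least 10 counts (29.3%) and 2 with siRNA 4 only (19.4%). Over left-out libraries 4 to 5 were higher, where 2962 to 3710 of all genes were. With the knockdown, 2 were higher by DESeq2 (6.86%), 3 in VM sets (8.76%) and 3 with only the groups compared (13.3%). The count was 3 in VM sets with the unmatched library (13.6%), 0 with siRNA 4 only (0.0151%) and 0 over 2-fold (1%). Those lower were 4 with siRNA 2 only (13.9%), 1 with at least 10 counts (5.2%) and 0 with siRNA 4 only (0.0151%). Left-out libraries gave 1 to 2 higher (2 without DMSO_siNT 4-2V or 4OHT_siSMARCA4 2-3V) and 2 to 3 lower, where 385 to 1555 of all genes were higher and 536 to 1714 lower. Against DMSO_siNT, 8 were higher (15.4%) and 8 lower (17%) with all genes, and 2 (21.7%) and 2 (27.6%) with at least 10 counts. There were 3 (14%) and 2 (17.2%) with siRNA 4 only, and 3 (7.71%) and 2 (13.8%) over 2-fold. With siRNA 2 only, 3 were higher (29.9%).

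The 4OHT change of CD59 turned to -0.24 with siRNA 4 only (-0.01097 to 0.1653 over left-out libraries) and to -0.01097, -0.008668 and -0.003787 without DMSO_siNT 2-1V, 2-2V and 2-2VM, the knockdown change of CFB to 0.27 with siRNA 2 only, and COLEC10 against DMSO_siNT to 0.05584 without DMSO_siNT 2-2VM (-0.272 to 0.05584 over left-out libraries). For siNT 2 minus siNT 4 in DMSO_siNT, DESeq2 called C3 (-1.66), C1S (0.59), C1R (0.74) and CD59 (-0.50). Its share of all genes called there was not computed. By the longest transcript, places in the order per length became 6 for CFD and 5 for SERPING1 in DMSO_siNT, 4 for C3 and 3 for CD55 in 4OHT_siNT, and 8 for CFB and 7 for SERPING1 in 4OHT_siSMARCA4. With 2 to 20 counts in some libraries, CFB, CFD and SERPING1 are limited by depth.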
